A study of Petromyzon marinus with 10 samples.

Results

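Enzymes that break down amino acids were followed in the brainstem of the sea lamprey (Petromyzon marinus) in larvae whose spinal cord had been cut completely, with and without baclofen. They are tyrosine aminotransferase (TAT, locus MSTRG.7084), tryptophan 2,3-dioxygenase (TDO, locus MSTRG.17829) and cysteine dioxygenase (CDO1, locus MSTRG.10284). These are 3 of the 57134 loci in the count table, and their names are those that the study's list of baclofen-responsive loci pairs with the locus identifiers. That list was drawn from the same libraries, so the difference between baclofen and control at each of the 3 loci is what chose them. It is given here as a description. The baclofen libraries came from larvae with the transection that were kept with baclofen, an agonist of the GABAB receptor, in the tank water. The control libraries came from larvae with the same transection and no drug. Animals of both groups were 5 to 7 years old, each group has 5 libraries, and each library pools the brainstem RNA of several animals. The series text gives 29 days after injury, whereas the methods give an earlier day for this experiment, and no value below depends on it.

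TAT removes the amino group of tyrosine in the step that commits it to breakdown. TDO opens the indole ring of tryptophan and thereby feeds the kynurenine pathway, and CDO1 oxidises the thiol of cysteine, which leads on to taurine and sulfate. In mammals all 3 are known best from the liver, where TAT and TDO are classic targets of glucocorticoids and TAT also responds to cyclic AMP. The GABAB receptor couples to inhibitory G proteins that lower cyclic AMP. Neither the tissue nor the species of that background is the one measured here.

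The libraries held 14123604 to 19566056 assigned fragments with baclofen (median 16685911) and 12774386 to 18130619 in controls (median 16297320). The 5 libraries of a group are numbered as replicates 1 to 5, and the labels do not say whether the numbers pair libraries across groups. Of 23794 loci that received an adjusted p from DESeq2, 18 were lower with baclofen at an adjusted p under 0.05, which is 0.0756% of those tested, and 64 were higher, which is 0.269%. The largest adjusted p inside that limit was 0.0469 and the smallest outside it was 0.0516. TAT and TDO were selected on being among the 18 and CDO1 on being among the 64. In whole brainstem tissue, fewer cells of a type and less RNA per cell cannot be told apart.

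The assembled gene models of the 3 loci differ in layout. The TAT locus lies on scaffold PIZI01000008.1 of the Pmar_germline 1.0 assembly, from 17864525 to 17892389 on the plus strand, and spans 27865 bp with 11 exon blocks. Its exons sum to 6755 bp, of which the last block holds 5257 bp. The TDO locus lies on scaffold PIZI01000026.1, from 1591045 to 1708136 on the plus strand, and its 14 exon blocks are spread over 117092 bp. Of its 7169 exonic bp, 5796 bp are again in the last block. The CDO1 locus lies on the minus strand of scaffold PIZI01000013.1, from 6807821 to 6815922, and is compact, with 5 exon blocks and 3387 exonic bp in 8102 bp. The files do not mark coding sequence or untranslated regions within these blocks. The RefSeq annotation of another assembly, UKy_Petmar_22M1, lists 1 gene each under the symbols TAT, TDO2 and CDO1, with spans of 44480, 114783 and 7532 bp.

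**Figure D1:**
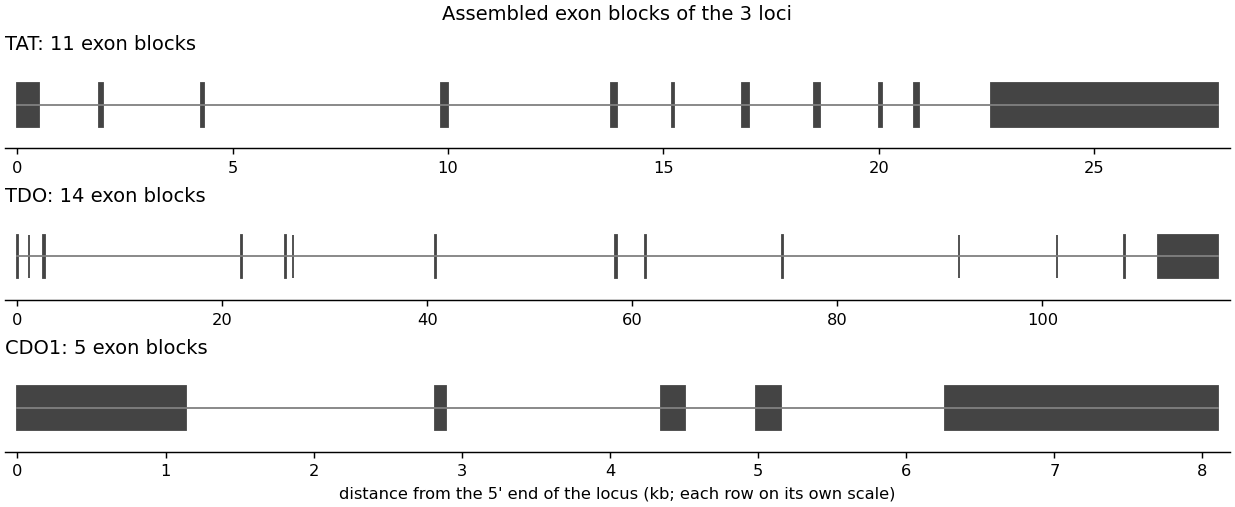
Exon blocks (bars) of the TAT, TDO and CDO1 loci along the distance from the 5' end of each locus, in kilobases, with a scale of its own for each row. The last block of TAT (5257 bp) and of TDO (5796 bp) holds most of the exonic length, whereas CDO1 has 5 blocks within 8102 bp.

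TAT was lower with baclofen. Its normalised read counts, which are counts divided by the size factor of the library, were 3620, 2936, 3057, 2529 and 2767 over baclofen libraries 1 to 5. They were 3790, 4826, 5291, 3856 and 5604 over control libraries 1 to 5. The highest baclofen library (replicate 1) and the lowest control library (replicate 1) were 171 normalised counts apart, so the groups did not overlap, which held for 1.25% of all tested loci. Baclofen libraries averaged 2982 ± 408 and control libraries 4674 ± 824 normalised counts (mean ± SD, n = 5 each). The log2 fold change on which TAT was chosen was -0.65 ± 0.12 (SE), a level 0.638 times that of controls (adjusted p = 3.32e-05, DESeq2). Among the 18 lower loci it had the highest mean count, ranked second by p and seventh by the size of the change. Controls fell into a lower pair (replicates 1 and 4) and 3 libraries at 4826 or more, and the coefficient of variation was 13.7% with baclofen and 17.6% in controls. The 2746 to 5807 raw counts per library carry a counting error of 1.31% to 1.91%, well under that spread.

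TDO was also lower with baclofen. Its normalised read counts were 681, 526, 675, 570 and 525 over baclofen libraries 1 to 5, against 726, 935, 989, 737 and 835 over control libraries 1 to 5. The groups again did not overlap, by 45.1 normalised counts, and the libraries that bordered the gap were the same as for TAT: baclofen replicate 1 and control replicate 1. Baclofen libraries averaged 595 ± 77.6 and control libraries 844 ± 117 normalised counts (mean ± SD, n = 5 each). The log2 fold change on which TDO was chosen was -0.50 ± 0.11 (SE), a level 0.705 times that of controls (adjusted p = 0.00215, DESeq2). The coefficients of variation were 13.0% with baclofen and 13.8% in controls, against a counting error of 3.32% to 4.51% per library.

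CDO1 moved the other way and was higher with baclofen. Its normalised read counts were 446, 647, 599, 540 and 622 over baclofen libraries 1 to 5, against 313, 500, 413, 330 and 364 over control libraries 1 to 5. Here the groups overlapped, because baclofen replicate 1 lay below control replicate 2. The other 4 baclofen libraries were above every control. Baclofen libraries averaged 571 ± 80.1 and control libraries 384 ± 75.1 normalised counts (mean ± SD, n = 5 each). The log2 fold change on which CDO1 was chosen was 0.57 ± 0.13 (SE), a level 1.49 times that of controls (adjusted p = 0.00533, DESeq2). It ranked 39 by p and 26 by size among the 64 higher loci, whose median log2 fold change was 0.50. The median was -0.54 among the 18 lower loci and -0.01 over all tested loci. The coefficients of variation of CDO1 were 14.0% with baclofen and 19.6% in controls, with a counting error of 3.64% to 5.60% per library.

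**Figure D2:**
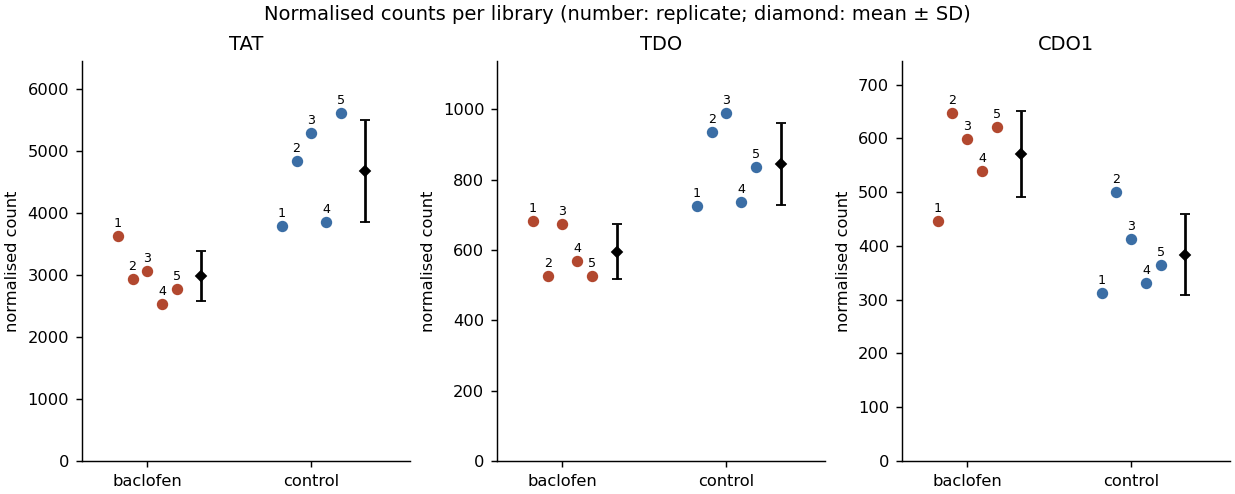
Normalised read counts (y axis, from 0, on a scale of its own per panel) of TAT, TDO and CDO1 in the 5 baclofen and 5 control libraries, with the replicate number above each point and the group mean ± SD as a diamond with bars. The groups do not overlap for TAT and TDO, and for CDO1 baclofen replicate 1 (446) lies below control replicate 2 (500).

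Levels can be set side by side between the enzymes once they are divided by exonic length. That length is the assembled one, so these levels and their ratios depend on the gene models. For TDO, 37 exon records were merged into 14 blocks, against 11 records in 11 blocks for TAT and 5 in 5 for CDO1. As CPM per kilobase (normalised counts set to the same library total and divided by exonic length), TAT had a level of 27.0 ± 3.69 with baclofen and 42.3 ± 7.45 in controls. CDO1 had a level of 10.3 ± 1.44 with baclofen and 6.92 ± 1.35 in controls, and TDO had a level of 5.07 ± 0.661 with baclofen and 7.19 ± 0.995 in controls (each over 5 libraries, ± SD). TAT was thus the most abundant of the 3 in every library, and its mean over all libraries was above that of 95.0% of tested loci, against 75.9% for CDO1 and 66.3% for TDO. In controls, TDO and CDO1 were neighbours that did not differ beyond their spread, with CDO1 at 0.884 to 1.13 times TDO. In baclofen libraries CDO1 was 1.39 to 2.60 times TDO, above the range of the controls. The level of TAT was 2.23 to 4.07 times that of CDO1 with baclofen and 4.84 to 7.72 times in controls. The level of TAT over that of TDO overlapped, at 4.71 to 5.92 times with baclofen and 5.48 to 7.12 times in controls. On the log2 scale this last ratio was 2.41 ± 0.15 with baclofen and 2.55 ± 0.16 in controls, a difference smaller than either SD. The shifts of these ratios between the groups follow from the differences that chose the loci.

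The direction at each locus was the same in all 18 alternative fits, which changed the scaling, the filters, the tool or the libraries. These fits reuse the libraries that chose the loci, so a kept direction is no independent evidence. TAT stayed past the threshold in 18 of 18, with log2 fold changes of -0.73 to -0.58. TDO did so in 16 of 18, from -0.56 to -0.44. It missed the threshold with edgeR's quasi-likelihood test, where the adjusted p was 0.0948 with the filter on low counts and 0.0593 without it. CDO1 stayed past it in 13 of 18, from 0.51 to 0.69. The edgeR adjusted p of CDO1 was 0.155 with the filter and 0.0728 without it, whereas that of TAT was 0.0468 with the filter. With that test 0.0918% of 27244 loci passed. CDO1 also missed the threshold in DESeq2 without baclofen replicate 2 (adjusted p = 0.0533), without baclofen replicate 5 (adjusted p = 0.0753) and without control replicate 4 (adjusted p = 0.0561).

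**Figure D3:**
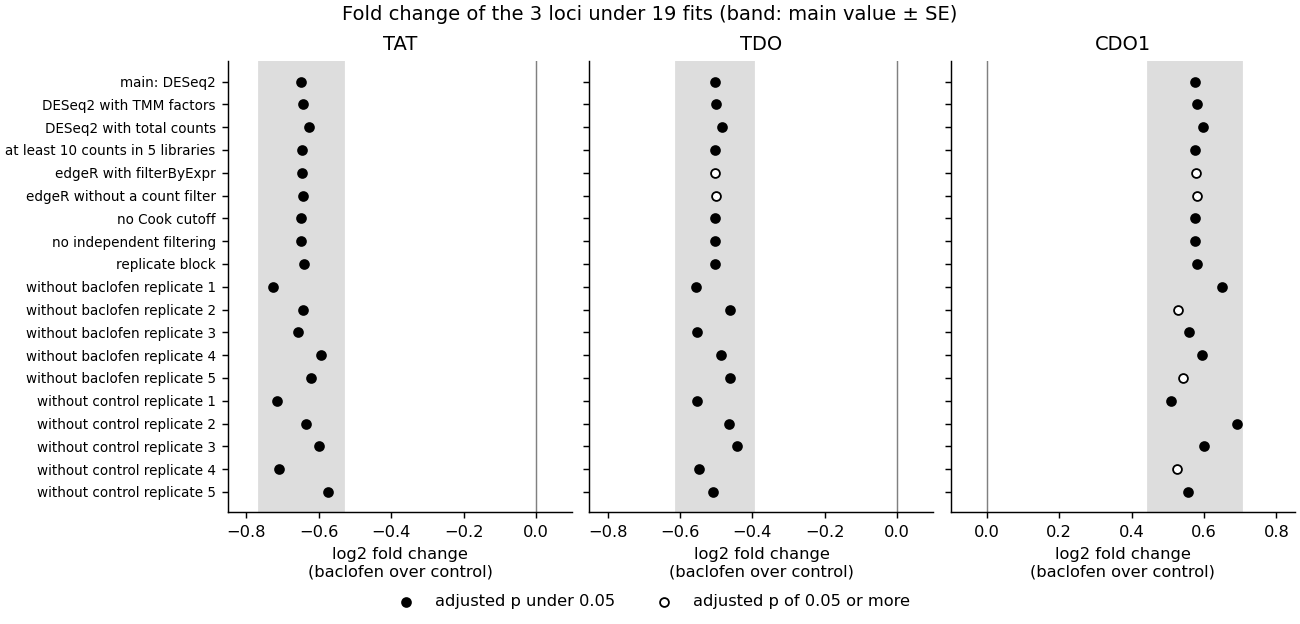
Log2 fold change of baclofen over control (x axis) of TAT, TDO and CDO1 under the DESeq2 fit and 18 alternatives (rows), with filled points for an adjusted p under 0.05 and the grey band for the DESeq2 value ± SE. Every point of TAT is filled, TDO has 2 open points and CDO1 has 5, and no point crosses 0.

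TAT and TDO had their extreme libraries in common. Baclofen replicate 1 had the highest value of its group at both loci, and control replicates 1 and 4 had the lowest values of theirs. After the mean of each group was taken away on the log2 scale, the deviations of TAT and TDO had Pearson r = 0.74 over the 10 libraries. Of the 23793 other tested loci, 95% lay between -0.74 and 0.72 in the same measure against TAT, and TDO ranked 468. Against TDO, 95% lay between -0.71 and 0.75, a range that holds this value, and TAT ranked 647. The value was 0.68 to 0.85 when each library was left out in turn, highest without control replicate 5, which was high for TAT and near its group mean for TDO. These points share a library and its scaling, and the value was 0.72 when libraries were scaled by total counts. CDO1 shared little of this within groups (r = 0.15 with TAT and 0.21 with TDO). Baclofen replicate 1, the highest of its group for TAT and TDO, was the lowest of its group for CDO1, while control replicates 1 and 4 were the lowest controls at all 3 loci. That pair of controls was also the lowest at SQOR, SGK1, NR1D1 and the glial loci VIM and SoxE1, among others. It was not the lowest at DUSP1, CREM or FTH1. With group means removed, TAT was about as much like VIM (r = 0.76, rank 365) and SoxE1 (r = 0.75, rank 452) as like TDO. The shared extremes are thus not particular to TAT and TDO.

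Over all 10 libraries, with the group difference left in, the locus most like TAT was SQOR (MSTRG.20608), with r = 0.955. SQOR, or sulfide quinone oxidoreductase, oxidises hydrogen sulfide in mitochondria, and cysteine is a main source of that sulfide. It was also the third most like TDO (r = 0.947), and TDO was the fifth most like TAT (r = 0.921). SQOR had normalised counts of 1148, 898, 998, 907 and 919 over baclofen libraries 1 to 5, against 1061, 1241, 1340, 1172 and 1278 over control libraries 1 to 5. Its groups overlapped through baclofen replicate 1 and control replicate 1, which bordered the gap at TAT and TDO too. The log2 fold change of SQOR was -0.32 ± 0.09 (SE; adjusted p = 0.0456 by DESeq2 and 0.233 by edgeR). With group means removed, SQOR had r = 0.87 with TAT (rank 50) and 0.85 with TDO (rank 138), and -0.06 with CDO1 (rank 14189). Over all 10 libraries, the loci most opposite to TDO included RNF24, a RING finger protein (r = -0.964), and GPR75, a G protein-coupled receptor (r = -0.946). Both were called higher with baclofen (DESeq2 adjusted p = 0.000167 and 0.00938), so these r carry the group difference that chose TDO.

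CDO1 ran with a different set. The locus most like it over 10 libraries was DUSP1 (MSTRG.13497; r = 0.966), a phosphatase that switches off MAP kinases. SGK1 (MSTRG.1275; r = 0.958), a kinase that regulates ion transport, was the third. Both genes are induced by glucocorticoids in mammals. Both loci are on the study's list as higher with baclofen, so these r carry the group difference that chose CDO1. DUSP1 had normalised counts of 327, 385, 400, 357 and 373 over baclofen libraries 1 to 5, against 222, 320, 286, 265 and 256 over control libraries 1 to 5. SGK1 had 1262, 1420, 1532, 1362 and 1446 over baclofen libraries 1 to 5, against 905, 1147, 1055, 896 and 1018 over control libraries 1 to 5. As at CDO1, baclofen replicate 1 was the lowest of its group and control replicate 2 the highest of its group at both loci. With group means removed, r with CDO1 was 0.92 for SGK1, rank 6 of 23793, and 0.91 for DUSP1, rank 9. Among the loci most like CDO1 in that measure was MSTRG.7023, which has no name in the sources used here (r = 0.93), with a log2 fold change of 1.02. The unnamed loci ranked just above and just below it (r = 0.94 and 0.93) had log2 fold changes of -0.03 and -0.04. Likeness to CDO1 within groups thus did not go only with a difference between groups.

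**Figure D4:**
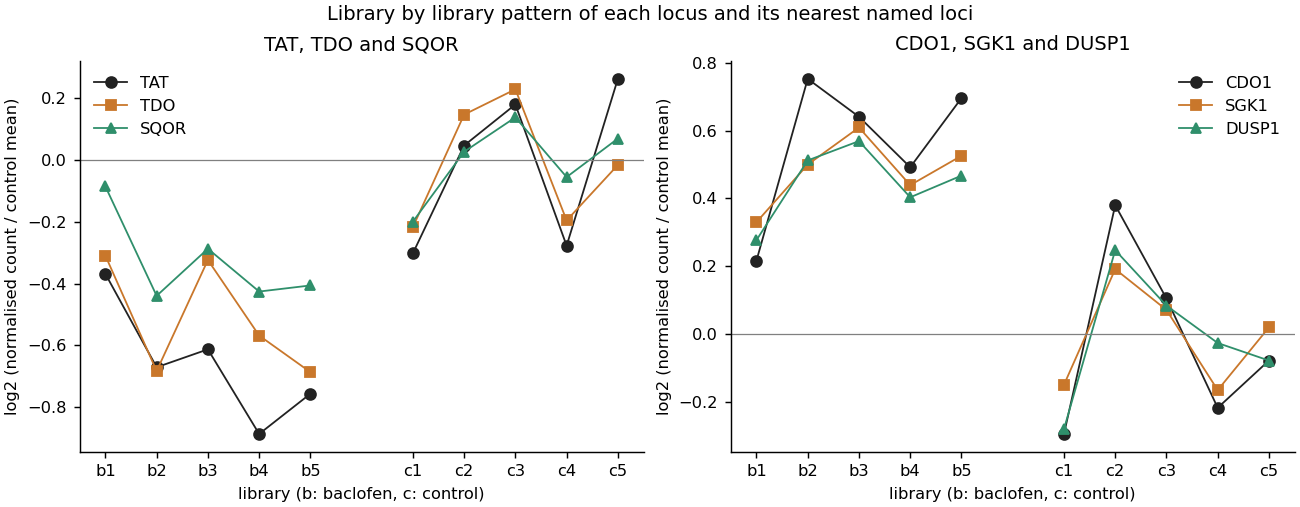
Log2 of the normalised count over the control mean (y axis) in baclofen replicates 1 to 5 (b1 to b5) and control replicates 1 to 5 (c1 to c5), for TAT, TDO and SQOR on the left and CDO1, SGK1 and DUSP1 on the right, with lines joining the libraries of a group only to guide the eye. TAT and TDO peak at b1 within the baclofen group, whereas CDO1, SGK1 and DUSP1 are lowest there. Among controls, TAT, TDO, SQOR, CDO1 and SGK1 are all lowest at c1 and c4, and CDO1, SGK1 and DUSP1 are highest at c2.

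The related loci were 12 in number, all from the study's list and thus all past the threshold in these libraries by choice, 10 of them higher and 2 lower. Their directions are therefore no independent evidence. The metabolic enzymes beside SQOR were DHDH, a dihydrodiol dehydrogenase, at 1819 ± 53.9 normalised counts in baclofen libraries against 1344 ± 247 in control libraries, and a carbohydrate deacetylase, at 1797 ± 182 in baclofen libraries against 1128 ± 163 in control libraries. Of genes that respond to glucocorticoids in mammals, TSC22D3, a leucine zipper protein also known as GILZ, averaged 1047 ± 89.3 in baclofen libraries against 467 ± 214 in control libraries. SGK1 had 1404 ± 100 with baclofen and 1004 ± 106 in controls, and DUSP1 had 369 ± 28.1 with baclofen and 270 ± 36.4 in controls. All 3 were higher with baclofen, like CDO1, whereas TAT and TDO, whose mammalian counterparts are in the same class, were lower. The part of glucocorticoids in these values was not tested. TSC22D3 followed CDO1 over 10 libraries (r = 0.93). Its 2 lowest libraries were control replicates 1 and 4, at 238 and 287, which were also the lowest controls at TAT, TDO and CDO1. With group means removed, TSC22D3 had r = 0.80 with CDO1 (rank 163), 0.63 with TAT (rank 1305) and 0.64 with TDO (rank 1529).

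Of loci tied to cyclic AMP, CREM, a transcription factor that binds its response elements, averaged 489 ± 70.0 in baclofen libraries against 283 ± 43.3 in control libraries. GPR12, a receptor that raises cyclic AMP, had 1559 ± 100 with baclofen and 1156 ± 91.0 in controls. Of transcription factors that act on liver metabolism in mammals, NR1D1, a clock repressor, had 1859 ± 254 with baclofen and 553 ± 186 in controls. NR0B2, a repressor of bile acid synthesis, had 464 ± 47.8 with baclofen and 239 ± 40.0 in controls, and HLF, an activator, ran from 470 to 534 with baclofen and from 331 to 482 in controls. FTH1, the heavy chain of the iron store ferritin, had 529 ± 78.9 with baclofen and 813 ± 165 in controls (the error is the SD over 5 libraries throughout). TDO holds heme and CDO1 holds iron. FTH1 ran with TAT (r = 0.88) and TDO (r = 0.79) over 10 libraries and had r = 0.66 (rank 1032) and 0.41 (rank 5027) with them once group means were removed, both inside the range that held 95% of loci. CREM and NR1D1 ran with CDO1 (r = 0.93 and 0.92), and with group means removed r was 0.81 (rank 124) and 0.79 (rank 177). By edgeR, 6 of the 12 passed the threshold: the carbohydrate deacetylase, SGK1, CREM, GPR12, NR0B2 and NR1D1. That test called 0.0918% of 27244 loci. The 12 were chosen as past the DESeq2 threshold in these same libraries, so this count is no independent evidence.

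**Figure D5:**
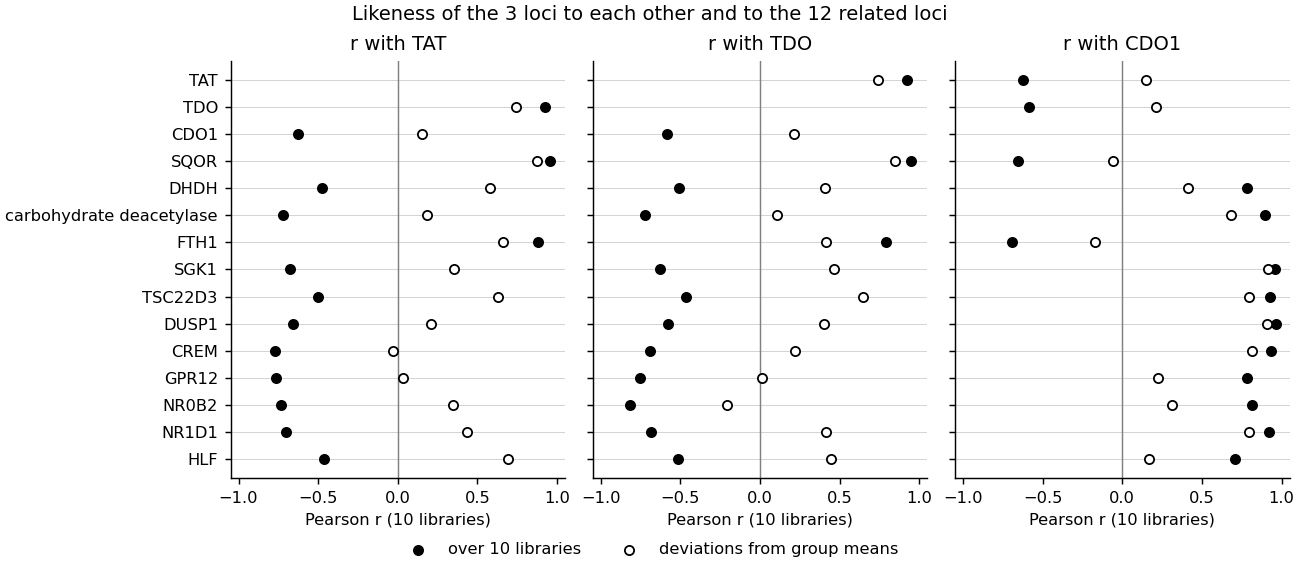
Pearson r (x axis) of TAT, TDO and CDO1 with each other and with the 12 related loci (rows) over 10 libraries, for log2 normalised counts (filled) and for deviations from the group means (open). Filled points carry the group difference that chose these loci, and among the open ones SQOR is nearest to 1 for TAT (0.87) and TDO (0.85), and SGK1 (0.92) and DUSP1 (0.91) are for CDO1.

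Markers of cell types that a brainstem sample can hold were set beside the 3 loci. Summed normalised counts of 4 neuronal loci were 17553 to 19723 with baclofen and 16496 to 18413 in controls. Most of that sum was CPLX1, which averaged 15353 with baclofen and 13694 in controls. CPLX1 and MAP6 were higher with baclofen, with log2 fold changes of 0.17 and 0.76 (DESeq2 adjusted p = 0.0397 for both). MAP6 averaged only 58.2 with baclofen and 34.1 in controls. GABRA5 and CARTPT had log2 fold changes of -0.13 and -0.09 (DESeq2 adjusted p = 0.989 and 0.998), and the median of the 4 was 0.04. Summed counts of 2 glial loci were 10928 to 12451 with baclofen and 10573 to 11826 in controls. Most of that sum was VIM, which averaged 10965.5 with baclofen and 10828.3 in controls. SoxE1 was higher with baclofen, while VIM had a log2 fold change of 0.02 (DESeq2 adjusted p = 0.998). The 4 leukocyte loci summed to 914 to 1141 with baclofen and 999 to 1247 in controls. Their directions were mixed, with PTPRC and TLR2 higher and VLRA and CD62L lower. The 2 loci of fibroblasts and meninges, FBN1 and COL6A6, summed to 492 to 561 with baclofen and 407 to 421 in controls. These ranges did not overlap, as held for 1.25% of single tested loci. By edgeR, FBN1 and COL6A6 missed the threshold (adjusted p = 0.228 and 0.155). The markers that passed the threshold with DESeq2 are on the study's list from these libraries, so their directions are no independent evidence. By edgeR no marker passed, and the smallest adjusted p was that of SoxE1 (0.0735). No marker was at 0 in all libraries. VLRA, an antigen receptor of lamprey lymphocytes, was the third most like TAT (r = 0.937) and the ninth most like TDO (r = 0.918). With group means removed, its r was 0.80 (rank 215) and 0.75 (rank 594). The other leukocyte loci differed from VLRA. Over 10 libraries, PTPRC had r = -0.70 with TAT and -0.67 with TDO, and TLR2 had -0.73 and -0.63. CD62L had 0.64 and 0.63. With group means removed, r with TAT was 0.04 for PTPRC, 0.06 for TLR2 and -0.03 for CD62L. With TDO, r was 0.10, 0.37 and -0.01 in that order. VLRA averaged 466 ± 95.0 in baclofen libraries against 696 ± 79.5 in control libraries, with SDs over 5 libraries. Of the glial loci with group means removed, VIM had r = 0.76 with TAT (rank 365), 0.69 with TDO and 0.58 with CDO1. SoxE1 had 0.75 with TAT (rank 452), 0.51 with TDO and 0.29 with CDO1. Over 10 libraries, r with TAT was 0.28 for VIM and -0.50 for SoxE1. Of the neuronal loci, r with TAT over 10 libraries was -0.85 for MAP6, -0.68 for CPLX1, 0.56 for GABRA5 and 0.54 for CARTPT. It was -0.81 for FBN1 and -0.80 for COL6A6. With group means removed, r with TAT was -0.38, 0.23, 0.46, 0.45, -0.26 and -0.22 in that order. With TDO over 10 libraries, r was -0.90, -0.58, 0.57, 0.49, -0.83 and -0.64 in that order. With group means removed it was -0.66, 0.55, 0.47, 0.34, -0.39 and 0.36. With CDO1 over 10 libraries, r was 0.78 for PTPRC, 0.87 for TLR2, -0.70 for VLRA and -0.80 for CD62L. With group means removed it was 0.32, 0.59, -0.14 and -0.48 in that order. For MAP6, CPLX1, GABRA5, CARTPT, FBN1 and COL6A6, r with CDO1 over 10 libraries was 0.60, 0.68, -0.11, -0.31, 0.81 and 0.71. With group means removed it was -0.50, -0.08, 0.36, -0.02, 0.38 and 0.01. The part of neurons, glia, leukocytes, fibroblasts or meninges in the values of TAT, TDO and CDO1 was not tested.

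Few loci next to TAT, TDO or CDO1 had enough counts to be tested. Within 50 kb lay 13 other loci, of which 2 were near TAT, 5 near TDO and 6 near CDO1. DESeq2 gave 4 of them an adjusted p and called 0, with 1 of the 13 at an unadjusted p under 0.05, and edgeR tested 5 and called 0, with 0 at an unadjusted p under 0.05. Neither tool tested any of the 5 near TDO. With 0.0756% of all loci called lower and 0.269% called higher, 0 calls among 4 or 5 loci says nothing particular about these surroundings. The locus at an unadjusted p under 0.05 was a single-exon locus of 473 bp on the strand opposite TDO and within its span. Its mean was 4.14 in baclofen libraries against 9.28 in control libraries, on the scale of normalised counts. A neighbour of TAT, 6574 bp away on the opposite strand, averaged 321 ± 52.0 in baclofen libraries against 271 ± 41.7 in control libraries. Its log2 fold change was 0.25 ± 0.13 (SE), with an adjusted p of 0.882 from DESeq2. The neighbour of CDO1 at 19700 bp, a locus with 88 exon blocks, had 4689 ± 175 with baclofen and 4704 ± 221 in controls. Loci with overlapping spans on the same strand numbered 4, and they shared 0 exonic bases with TAT, TDO or CDO1.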

How the data were processed

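Poly(A)-selected, strand-specific libraries of pooled lamprey brainstems were sequenced as read pairs. Per the study's methods, the authors trimmed reads with Fastp, aligned them to Pmar_germline 1.0 with STAR in 2 passes, assembled loci with StringTie and deposited fragment counts per locus from featureCounts, which keep strand and need both ends mapped; tool versions are not given in the sources used here. The table lists each locus's exonic length in base pairs. Of the rows, 2 that were broken across lines were rejoined. DESeq2 1.42.0 (R 4.3.3) compared 5 baclofen with 5 control libraries over 57134 loci, with median-of-ratios size factors, Benjamini-Hochberg adjustment and independent filtering at a mean count of 14.35; edgeR 4.0.16 was an alternative. Levels per kilobase were scaled to the mean library total. Pearson r used log2(normalised count + 1) (numpy 2.4.6, pandas 2.3.3). Fits were tested on simulated data. Members and lists were chosen with earlier results of these data known. Named loci are the 3 members, the 12 related loci, the markers, neighbours within 50 kb, and the loci with the highest or lowest r. Same-numbered libraries did not deviate together (r from -0.10 to 0.01 over 5 numbers). Each pool held different animals, so p-values measure the spread between pools. RefSeq identifiers matched 0 loci, so enzymes of these pathways other than TAT, TDO, CDO1 and SQOR were not analysed here.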

Additional observations from a re-analysis of the deposited data

Results flagged for a closer look

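In a check of 56 groups of 5 libraries, 2 had a library far from its group, where chance gives about 1 in 20, or 2.8. The normalised count of GPR12 in control replicate 4 was 999, while the other 4 controls lay between 1157 and 1220. The normalised count of NR0B2 in control replicate 5 was 308, while the other 4 controls lay between 206 and 235. In neither case did the library reach the baclofen range. No library of TAT, TDO or CDO1 stood apart from its group in this way.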

How the results depend on the processing

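TAT, TDO and CDO1 kept their direction in all 18 alternatives, which reuse the libraries that chose them. TDO missed the threshold only with edgeR, at a log2 fold change of -0.50 with the low-count filter (adjusted p = 0.0948) and -0.50 without it (adjusted p = 0.0593). CDO1 missed it with edgeR, at 0.58 with the filter (adjusted p = 0.155) and 0.58 without it (adjusted p = 0.0728), and with 3 single libraries left out. With each library left out in turn, CDO1 ranged from 0.51 to 0.69, TAT from -0.73 to -0.58 and TDO from -0.56 to -0.44. The count of loci past the threshold, 82 in DESeq2, was 25 with edgeR (23 higher, 2 lower) and 30 without its filter (28 higher, 2 lower), and 11 lower loci were called without independent filtering. It was 49 (without baclofen replicate 5) to 426 (without control replicate 1) with a library left out, that is 38 to 124 higher and 9 to 302 lower. The cause of these shifts was not tested. Other scalings and filters gave 63 to 105. A fit with the replicate number as a block gave 45 loci, 37 higher and 8 lower. Within it TAT, TDO and CDO1 stayed past the threshold at -0.64, -0.50 and 0.58. Their DESeq2 adjusted p in that fit was 0.0324, 0.00392 and 7.93e-05, against 3.32e-05, 0.00215 and 0.00533 without the block. The labels do not say whether a shared number marks a pair, and 0 of 5 baclofen libraries correlated best with the control of the same number. The correlation of TAT and TDO deviations was checked under total counts and with each library left out, which was chosen after seeing the data, and was 0.85 without control replicate 5. The neighbours within 20 or 50 kb gave 0 calls in these fits, but within 50 kb DESeq2 as reported tested 4 and edgeR with its filter tested 5, with none near TDO, which says little where 0.0756% of loci were called lower and 0.269% higher.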
